A study of Arabidopsis thaliana with 12 samples.

Results

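Dark-grown Arabidopsis thaliana seedlings of the line atbzip16 were set against dark-grown wild-type seedlings of the accession Landsberg erecta (Ler), using the 6 arrays whose titles name etiolated atbzip16 or etiolated Ler, out of 12 arrays in all. The line bears the name of the transcription factor bZIP16, and the labels give neither the kind of mutation nor the number of lines. Both genotypes share the Ler background, an age of 4 days, growth in the dark on agar plates and the harvest of the aerial part, and each has 3 biological replicates. The other 6 arrays hold seedlings of the same 2 genotypes and age grown in long days of red light (0.5 µmol m-2 s-1). Their group means share no array with the dark fold changes, but the spread between replicates and the replicate block were fitted over all 12 arrays. For 6 samples the description field disagrees with the title on the light condition, and titles, source names and treatment labels were followed.

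bZIP16 belongs to the G group of basic leucine zipper proteins, which bind G-box elements in the promoters of many light- and hormone-regulated genes. A seedling kept in the dark grows by etiolation: the hypocotyl elongates, the cotyledons stay closed and pale, and the seedling lives on the oil and protein stored in the seed. Transcripts made late in seed development, for storage proteins, oil bodies and desiccation tolerance, normally decline during and after germination. bZIP16 has no probe set named after it here, so its own transcript was not analysed here and gives no check of the labels.

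Of 15922 probe sets tested, 290 (1.82%) differed between dark-grown atbzip16 and Ler at a Benjamini-Hochberg adjusted p under 0.05 in limma, with replicate number as a block. Of these, 200 (1.26%) were higher in atbzip16 and 90 (0.565%) were lower. Rises were larger than falls: 93 of the 200 and 18 of the 90 changed at least 2-fold. The median log2 fold change was 0.96 among the probe sets that rose and -0.70 among those that fell, against -0.02 over all probe sets tested. Every log2 fold change in this text is atbzip16 over Ler, on the scale of log2 signal, and every ± after one is its standard error in the model, with 3 arrays per group. All 290 moved the same way in each of the 3 replicate pairs. The block fit favours such probe sets, so this adds no separate support to the calls. In 207 of the 290 the 3 atbzip16 arrays did not overlap the 3 Ler arrays, as was so for 12.3% of all probe sets tested. Only 10 probe sets (0.0628%) passed without the replicate block, against 1003 at an unadjusted p under 0.05. The counts also changed when 1 dark array was left out: leaving out atbzip16 replicate 1, 2 or 3 gave 153, 139 and 107 called probe sets, leaving out Ler replicate 2 or 3 gave 114 and 112, and leaving out Ler replicate 1 gave 288. In all 6 of these fits 75 of the 290 were called, 60 of them higher and 15 lower. Of the 290, 142 had 1 named gene (1.65% of 8584 named genes, with 1.08% higher and 0.571% lower), 93 of them higher and 49 lower, and named genes are the subject of most of what follows.

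**Figure D1:**
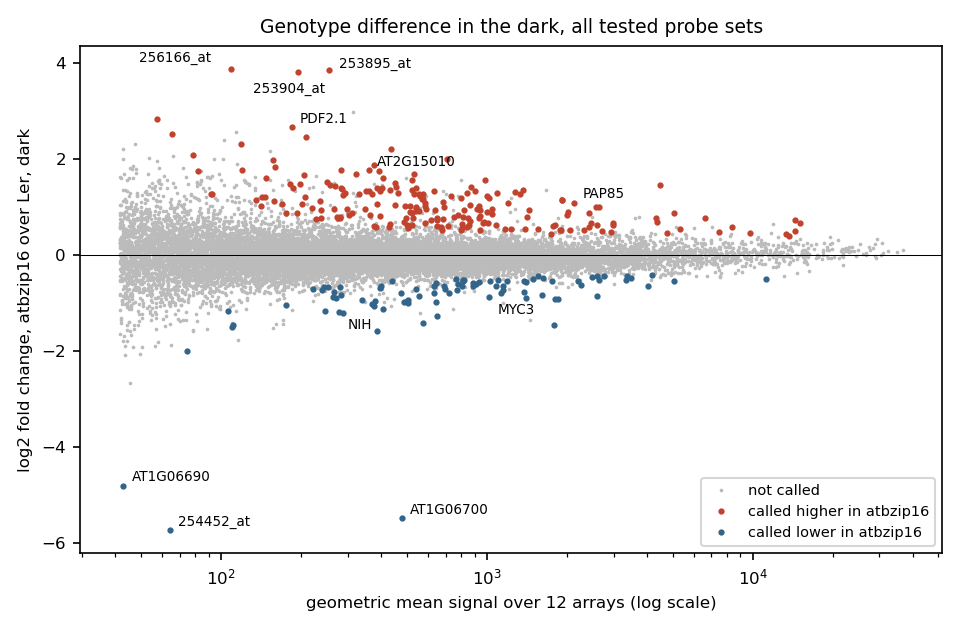
Log2 fold change between atbzip16 and Ler in the dark (vertical axis) against the geometric mean signal over all 12 arrays (horizontal axis, log scale), 1 point for each of 15922 probe sets. Called probe sets are red where higher in atbzip16 (200) and blue where lower (90), grey points were not called, and AT1G06700, AT1G06690 and 254452_at lie far below the rest at log2 fold changes from -5.73 to -4.80.

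The largest falls in named genes came from a short stretch of chromosome 1. AT1G06700 encodes a protein kinase related to tomato PTI1. Its signal was 75.1, 76.1 and 70.3 in the atbzip16 arrays, against 3196.9, 3367.5 and 3299.0 in the Ler arrays. Every atbzip16 array was thus far below every Ler array, and the spread within each genotype was small beside the gap. The log2 fold change was -5.48 ± 0.14 (limma adjusted p = 1.95e-11), and it stayed between -5.52 and -5.39 when any 1 dark array was left out. AT1G06690, the adjacent gene, encodes an oxidoreductase of the aldo/keto reductase type. It had signals of 3.2, 23.3 and 4.3 in atbzip16, against 112.1, 291.8 and 212.7 in Ler. The groups did not overlap, but the atbzip16 values lie near the bottom of the scale and scatter widely. Its fold change of -4.80 ± 0.89 (adjusted p = 0.0124) became -3.07 with a pseudocount of 16, and it was not called without atbzip16 replicate 1 or 3 or without Ler replicate 2 or 3 (adjusted p up to 0.119). NIH, a DEIH-box RNA helicase gene 2 genes away from AT1G06690, had signals of 179.3, 174.4 and 199.8 in atbzip16, against 456.4, 447.9 and 361.8 in Ler. It fell by 1.19 on the log2 scale (SE 0.16, adjusted p = 0.00172) and was called in all 6 fits that left out 1 dark array.

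The nearest tested genes on either side of this stretch did not pass the test. The genes directly at its edges, JASON next to NIH and AT1G06710 next to AT1G06700, have no tested probe set of their own. AT1G06650, on the side of NIH, had a log2 fold change of 0.58 (95% interval 0.19 to 0.97, adjusted p = 0.15) and was picked out after its values were seen. On the other side AT1G06720 had 0.26 (-0.33 to 0.84, adjusted p = 0.766) and AT1G06730 had -0.44 (-0.84 to -0.03, adjusted p = 0.328). PSBP-1, which lies between NIH and AT1G06690, has no tested probe set of its own and was not analysed here. In red light, where the group means rest on other arrays, the fold changes were -6.53 for AT1G06700 (adjusted p = 1.7e-12), -3.96 for AT1G06690 (adjusted p = 0.0689) and -0.86 for NIH (adjusted p = 0.0307). Around the 5 largest rises and the 5 largest falls in named genes, 20 other genes up to 3 genes away on each side were tested. Only NIH among those 20 was called, and none was called higher, where 1.65% of all named genes were called.

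**Figure D2:**
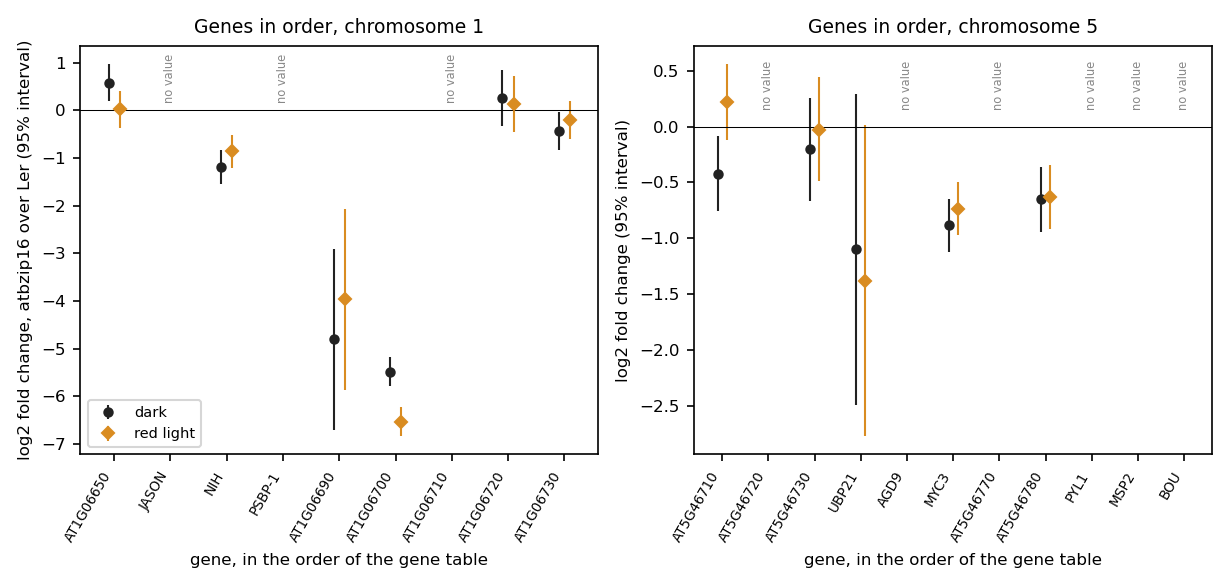
Log2 fold change between atbzip16 and Ler with its 95% interval (vertical axis) for genes in their order on chromosome 1 around AT1G06700 (left) and on chromosome 5 around MYC3 (right), in the dark (black circles) and in red light (orange diamonds). NIH, AT1G06690 and AT1G06700 lie below 0 in both conditions, as do MYC3 and AT5G46780, and genes without a tested probe set of their own are marked as having no value.

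A second pair of neighbours fell on chromosome 5. MYC3 encodes a bHLH transcription factor that is a target of the JAZ repressors in jasmonate signalling. It gave signals of 809.0, 882.6 and 715.2 in atbzip16, against 1606.0, 1592.2 and 1255.2 in Ler, with no overlap. Its fold change was -0.88 ± 0.11 in the dark (adjusted p = 0.001) and -0.74 in red light (adjusted p = 0.00846), and no single dark array decided the call. MYC4, its close relative and the only other tested member of 28 listed jasmonate genes, had a fold change of 0.13 (-0.51 to 0.77, adjusted p = 0.908). AT5G46780, 2 genes from MYC3, was picked out after its values were seen, with signals of 460.5, 358.5 and 479.5 in atbzip16 and 794.6, 614.3 and 621.5 in Ler. It fell by 0.65 (adjusted p = 0.0245), and it lost the call in 5 of the 6 fits without 1 dark array, all but that without atbzip16 replicate 3 (adjusted p up to 0.141). Among 8748 pairs of tested genes up to 3 genes apart, 8 pairs had both genes called, and in all 8 both changed in the same direction. The 8 are not separate cases, since NIH, AT1G06690 and AT1G06700 each pair with one another. Of all named genes 1.65% were called, and whether neighbours were called together more often than that share gives was not tested. The 8 pairs include AT1G19530 (0.67, adjusted p = 0.0049) and its neighbour AT1G19540 (0.76, adjusted p = 0.0011), both singled out after their values were seen. Both were also higher in red light at 0.59 (adjusted p = 0.0272) and 0.70 (adjusted p = 0.00481). AT1G19530 lost its call in the dark without atbzip16 replicate 3 (adjusted p = 0.0501).

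Seed proteins were among the named rises. Late embryogenesis abundant (LEA) proteins protect cells as seeds dry, and 6 of the 19 tested members of a list of 34 rose in atbzip16, against 1.08% of named genes, and none fell. Of these 19, none was called without the replicate block, 2 with it as a random effect, 3 without a variance trend and 14 from the 6 dark arrays alone. Their median log2 fold change over the 19 was 1.19, and 17 of the 19 were above 0. Such a list holds genes of seeds as much as of seedlings. In bulk RNA, more cells or seeds of a kind and more RNA per cell cannot be told apart.

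AT5G44310, a LEA protein gene, had signals of 2681.9, 1830.5 and 1722.2 in atbzip16, against 1048.4, 630.0 and 554.0 in Ler, and rose by 1.51 ± 0.18 (adjusted p = 0.000859). The gene listed under the symbol LEA, a dehydrin, had 9179.5, 5207.9 and 4753.9 in atbzip16, against 3782.1, 1642.5 and 1397.7 in Ler. It rose by 1.57 ± 0.26 (adjusted p = 0.0052), and lost the call only without Ler replicate 3 (adjusted p = 0.0504). In both genes every atbzip16 array was above every Ler array, and replicate 1 was the highest array of each genotype. AtLEA4-1 had 11729.4, 5137.1 and 4857.9 in atbzip16, against 7241.4, 2106.5 and 1801.7 in Ler, and rose by 1.14 ± 0.14 (adjusted p = 0.00103). LEA18 had 14712.2, 6967.4 and 6911.1, against 8811.1, 3402.8 and 3039.8 in Ler, a rise of 0.99 ± 0.13 (adjusted p = 0.00125). Here the groups overlap, since Ler replicate 1 was above atbzip16 replicates 2 and 3, and neither gene passed without the replicate block, where the adjusted p was 0.847 for AtLEA4-1 and 0.873 for LEA18. AT3G17520, singled out after its values were seen, rose by 1.04 (adjusted p = 0.0151), and AT3G53040, singled out likewise, by 1.27 (adjusted p = 0.0366). AT3G17520 kept its call only without replicate 1 of either genotype (otherwise adjusted p up to 0.109), and AT3G53040 only without atbzip16 replicate 1 (up to 0.214). Of the other 13 tested members, M10 had the largest fold change at 1.64 (adjusted p = 0.0628) and was also singled out, and M17 had 1.23 with an interval from -0.59 to 3.05 (adjusted p = 0.599).

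Among genes of seed storage proteins and oil bodies, 2 of 9 tested members of a list of 24 rose, against 1.08% of named genes, and none fell. Of these 9, none was called without the replicate block or without a variance trend, 1 with a random block and 8 from the 6 dark arrays alone. The median was 1.33, and 8 of the 9 were above 0. PAP85 encodes a vicilin-like storage protein and had signals of 34501.1, 27131.9 and 26608.3 in atbzip16, against 21600.9, 10988.5 and 10913.4 in Ler. It rose by 1.09 ± 0.21 (adjusted p = 0.0154), and the groups did not overlap. AT2G25890 encodes an oleosin, a coat protein of oil bodies, and had 3765.4, 1931.5 and 1704.6, against 2518.2, 861.7 and 694.3 in Ler. It rose by 1.01 ± 0.22 (adjusted p = 0.0272), and here Ler replicate 1 lay above the 2 lower atbzip16 arrays. Each of the 2 calls was lost in 5 of the 6 fits without 1 dark array (adjusted p up to 0.12 for PAP85 and 0.177 for AT2G25890). PAP85 kept it only without Ler replicate 1, and AT2G25890 only without atbzip16 replicate 1. The cupin gene AT1G03890, singled out after its values were seen, had 1255.2, 1234.4 and 1180.4 in atbzip16, against 274.9, 246.2 and 183.1 in Ler. Those groups are far apart, yet with the spread of all 12 arrays its fold change of 2.40 had an adjusted p of 0.129. Without Ler replicate 3 the storage and oil-body median was 0.86 with no member called, and 3 LEA genes were called. OLEO3, another oleosin gene singled out, had -0.36 (-0.73 to 0.00, adjusted p = 0.375).

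The summed signal of the 9 storage and oil-body genes was 64087, 45886 and 45016 in the atbzip16 arrays, against 36601, 20128 and 18425 in the Ler arrays. For the 19 LEA genes it was 107694, 68082 and 66399, against 60049, 32320 and 27721 in Ler. Replicate 1 was the highest array in both genotypes for both sums, so part of the variation in seed transcripts went with replicate number. The median storage gene differed by 0.90, 1.32 and 1.57 on the log2 scale within pairs 1, 2 and 3, and the median LEA gene by 0.72, 1.15 and 1.46. No gene of either list had a signal of 0 in any array. Whether the 2 genotypes held different shares of late or ungerminated seeds was not tested.

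**Figure D3:**
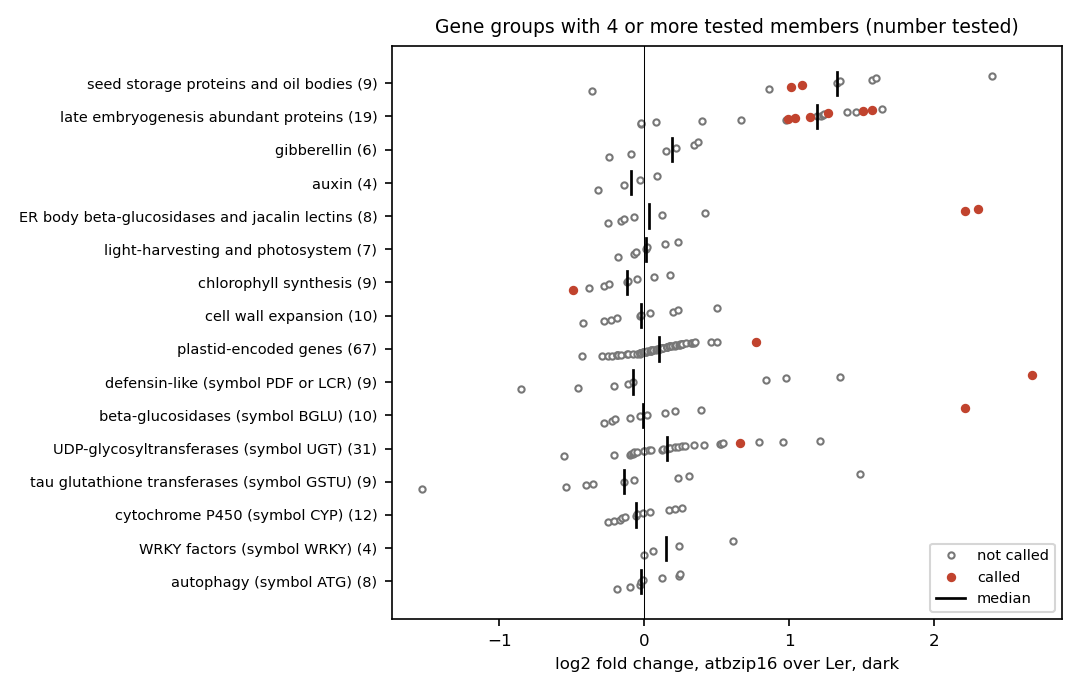
Log2 fold change between atbzip16 and Ler in the dark (horizontal axis) for each tested member of the gene groups with 4 or more tested members, with called members filled in red, others open and the group median as a black line. Storage and oil-body genes (median 1.33) and LEA genes (median 1.19) lie to the right of 0, and most photosystem, chlorophyll and cell wall genes lie close to it.

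Seed maturation regulators and genes for the breakdown of seed oil had 3 tested members each. None of the 3 tested seed maturation regulators of 16 listed passed over all probe sets in limma, though 2 had an unadjusted p under 0.05: the bZIP factors BZIP53 (0.31, adjusted p = 0.148) and EEL (0.71, adjusted p = 0.149). In the same fit 2156 of all 15922 probe sets had an unadjusted p under 0.05. AGL67, a MADS-box factor singled out after its values were seen, had 1.57 (-0.13 to 3.27, adjusted p = 0.42). ICL is isocitrate lyase of the glyoxylate cycle, through which seedlings turn stored oil into sugar. It was the called member among 3 tested genes for the breakdown of seed oil, against 1.08% of named genes called higher. Its signals were 30141.3, 19797.1 and 19021.9 in atbzip16, against 20972.8, 10287.0 and 11582.7 in Ler, a rise of 0.73 ± 0.12 (adjusted p = 0.00697). That call was lost without Ler replicate 2 (adjusted p = 0.0618). SDP1, singled out likewise, the lipase that starts the breakdown of seed oil, had 0.29 (0.00 to 0.58, adjusted p = 0.359).

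Further rises were in genes singled out after their values were seen. BETA-VPE, a vacuolar processing enzyme that matures seed storage proteins, had 5500.1, 3953.5 and 3624.9 in atbzip16, against 2697.1, 1567.0 and 1210.6 in Ler, and rose by 1.32 ± 0.14 (adjusted p = 0.000641). AT3G54940, a papain-type protease gene, rose by 1.19 ± 0.22 (adjusted p = 0.0118), a call that was lost without atbzip16 replicate 2 or 3 or Ler replicate 2 or 3 (adjusted p up to 0.0984). AT3G56350, a superoxide dismutase gene, rose by 1.41 ± 0.23 (adjusted p = 0.00479), the AWPM-19-like gene AT1G04560 by 1.36 ± 0.23 (adjusted p = 0.00602) and the glutaredoxin gene GRXC1 by 1.03 ± 0.13 (adjusted p = 0.000998). AT1G04560 lost its call without Ler replicate 3 (adjusted p = 0.0584), and BETA-VPE, AT3G56350 and GRXC1 kept theirs in all 6 such fits. Without the replicate block none of these passed in limma (adjusted p = 0.294 for BETA-VPE, 0.847 for AT3G56350 and 0.0517 for GRXC1). The groups of AT3G56350 overlap, since Ler replicate 1 (7620.8) was above atbzip16 replicates 2 and 3 (6978.2 and 6751.8).

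The largest rises in named genes included proteins of defence families that also occur in seeds. PDF2.1 encodes a plant defensin and had signals of 1155.3, 2622.2 and 2370.8 in atbzip16, against 149.0, 465.6 and 402.2 in Ler. It rose by 2.67 ± 0.43 (adjusted p = 0.00523), and was not called without atbzip16 replicate 2 (adjusted p = 0.0505). The other 8 tested members of the 94 listed genes with defensin-like symbols were not called, and the list median was -0.08. Of named genes, 1.08% were called higher. AT2G15010, a thionin-like gene, had 3614.9, 3590.6 and 3277.7 in atbzip16, against 1088.0, 1105.4 and 908.3 in Ler. Its spread within each genotype was small, replicate 1 did not stand apart, and the rise of 1.76 ± 0.21 (adjusted p = 0.000722) also passed without the block (adjusted p = 0.0256).

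BGLU19, a beta-glucosidase gene, and AT3G21380, a jacalin-type lectin gene, lie 2 genes apart on chromosome 3 and both rose. BGLU19 had 2973.3, 3344.3 and 4169.9 in atbzip16, against 322.9, 1047.4 and 1249.1 in Ler, a rise of 2.21 ± 0.49 (adjusted p = 0.0334). AT3G21380 had 355.4, 624.7 and 656.4, against 71.7, 123.7 and 136.2 in Ler, a rise of 2.30 ± 0.38 (adjusted p = 0.00538). Neither gene's groups overlapped. BGLU19 lost its call in 5 of the 6 fits without 1 dark array, all but that without Ler replicate 3 (adjusted p up to 0.152), and AT3G21380 without atbzip16 replicate 3 (adjusted p = 0.0588). They were the 2 called among 8 tested genes of a list of endoplasmic reticulum body beta-glucosidases and jacalin lectins, whose median was 0.03. Of named genes, 1.08% were called higher. PYK10, the main beta-glucosidase of those bodies and a marker of roots, had 14456.5, 19888.9 and 21060.2 in atbzip16, against 16761.2, 21134.9 and 19784.0 in Ler, a fold change of -0.07 (-0.26 to 0.12, adjusted p = 0.811).

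Other large named rises were in AT1G47540 (2.84, adjusted p = 0.026) and AT1G47980, a gene resembling desiccation proteins (1.76, adjusted p = 0.00523). ATOEP16-2, a channel protein of the outer plastid envelope, rose by 1.66 ± 0.31 (adjusted p = 0.0138), AT2G38465 by 1.69 ± 0.22 (adjusted p = 0.00141) and AT3G57020, of the strictosidine synthase-like family, by 1.61 ± 0.18 (adjusted p = 0.000641). AT1G35612, a pseudogene in the gene table, had the low signals of 97.4, 123.5 and 163.3 in atbzip16, against 23.3, 21.3 and 20.8 in Ler, a rise of 2.52 ± 0.40 (adjusted p = 0.0046). AT1G47540 lost its call in all fits without 1 dark array except that without Ler replicate 1 (adjusted p up to 0.188), and ATOEP16-2 without atbzip16 replicate 1 or 3 or Ler replicate 2 or 3 (adjusted p up to 0.115). AT1G35612 lost it without atbzip16 replicate 3 (adjusted p = 0.0571), as did AT1G47980 (adjusted p = 0.0511). ASPGB1, an asparaginase that frees nitrogen from stored asparagine, had 4318.5, 3670.0 and 3659.1 in atbzip16, against 2501.6, 1812.9 and 2032.9 in Ler. It rose by 0.88 ± 0.12 (adjusted p = 0.00141) and was among the 10 probe sets that passed without the block. 2A6, of the 2-oxoglutarate-dependent dioxygenase type and singled out after its values were seen, rose by 1.44 ± 0.16 (adjusted p = 0.000641) and was higher in red light too (1.07, adjusted p = 0.00895). UGT73B1, which attaches sugar to flavonoids, was the called member among 31 tested UDP-glycosyltransferases (0.66, adjusted p = 0.0248), against 1.08% of named genes called higher. That call was lost in every fit without 1 dark array but that without Ler replicate 1 (adjusted p up to 0.149).

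Several probe sets with no named gene changed as much as any. Probe set 254452_at had 6.8, 27.9 and 2.0 in atbzip16, against 348.6, 432.7 and 374.8 in Ler, a fold change of -5.73 ± 0.74 (adjusted p = 0.00125) that became -3.93 with a pseudocount of 16. In the other direction, 253904_at had 903.7, 1435.5 and 1291.0 in atbzip16, against 79.3, 86.8 and 89.8 in Ler, a rise of 3.80 ± 0.44 (adjusted p = 0.000641). Both were called in all 6 fits without 1 dark array. Probe sets 256166_at and 253895_at, singled out after their values were seen, rose by 3.88 ± 0.57 (adjusted p = 0.00289) and 3.86 ± 0.41 (adjusted p = 0.000641). The first gave 312.8, 436.9 and 451.3 in atbzip16, against 37.6, 39.8 and 13.0 in Ler, and the second 1569.4, 4340.5 and 4515.4, against 66.4, 401.2 and 377.1 in Ler. A further pair of probe sets without a gene name passed with and without the block. One, 248863_at, had 930.1, 1077.6 and 1058.0 in atbzip16, against 2023.4, 1920.7 and 1786.6 in Ler (-0.90 ± 0.10, adjusted p = 0.000641), and the other, 245161_at, rose by 2.00 ± 0.27 (adjusted p = 0.00141).

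**Figure D4:**
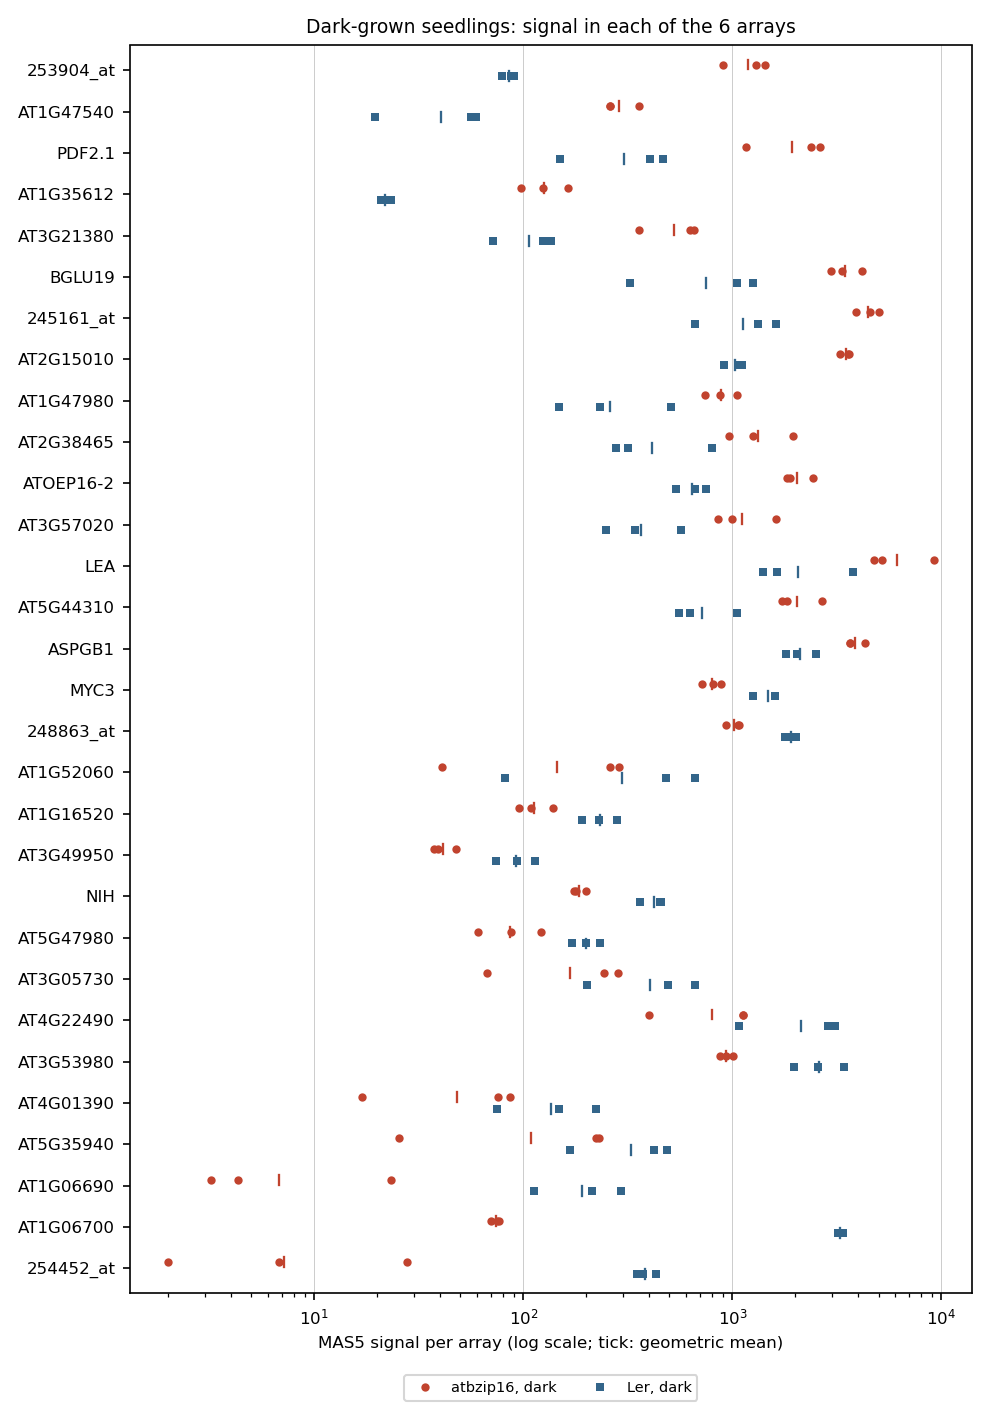
MAS5 signal of each dark array (horizontal axis, log scale) for the 12 largest named rises, the 12 largest named falls and the further probe sets called without the replicate block, with atbzip16 as red circles above Ler as blue squares and a tick at each group's geometric mean. AT1G06700 and AT2G15010 show tight groups far apart, and the 3 replicates of AT1G52060 and AT5G35940 overlap between genotypes, with replicate 1 low in both.

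The other named falls were smaller than those of AT1G06700 and AT1G06690. The jacalin-type lectin gene AT5G35940 had 25.4, 221.5 and 231.0 in atbzip16, against 167.6, 422.9 and 487.1 in Ler, and fell by 1.58 ± 0.34 (adjusted p = 0.0309). A second lectin gene of that type, AT1G52060, had 40.6, 285.8 and 259.1, against 81.7, 480.6 and 658.6 in Ler, and fell by 1.03 ± 0.19 (adjusted p = 0.0135). In both the groups overlap, and replicate 1 is the low array in each genotype. A pair of genes of the lipid-transfer and seed-albumin type also fell. AT3G53980 had 1001.7, 935.2 and 876.4 in atbzip16, against 3398.7, 1972.6 and 2576.1 in Ler, without overlap (-1.46 ± 0.30, adjusted p = 0.0228), and AT4G22490 fell by 1.41 ± 0.27 (adjusted p = 0.0151). AT3G05730, a defensin-like gene, fell by 1.28 ± 0.30 (adjusted p = 0.0461), the TRAF-like gene AT4G01390 by 1.49 ± 0.29 (adjusted p = 0.0158), AT5G47980, of the BAHD acyltransferase family, by 1.20 ± 0.21 (adjusted p = 0.00757), AT1G16520 by 1.04 ± 0.20 (adjusted p = 0.0159) and the GRAS transcription factor gene AT3G49950 by 1.16 ± 0.27 (adjusted p = 0.0469). These 9 calls did not hold in every fit without 1 dark array, and whether particular arrays drive them was not tested. AT5G47980 lost its call without atbzip16 replicate 3 or Ler replicate 2 (adjusted p up to 0.0531), AT5G35940 without any 1 Ler array (up to 0.149), and AT1G52060 without atbzip16 replicate 1 or 3 or Ler replicate 3 (up to 0.114). AT3G53980 lost it without atbzip16 replicate 2 or 3 or Ler replicate 1 or 3 (up to 0.143), AT4G22490 without atbzip16 replicate 1 or 2 or Ler replicate 2 or 3 (up to 0.124) and AT4G01390 without atbzip16 replicate 1 or 3 or Ler replicate 1 or 3 (up to 0.115). AT3G05730 kept it only without Ler replicate 2 (up to 0.219), AT1G16520 only without atbzip16 replicate 1 (up to 0.119), and AT3G49950 lost it without any 1 of the 6 (up to 0.232). ChiC, a class V chitinase gene singled out after its values were seen, was called in all 6 fits. Its signals were 575.4, 317.6 and 282.1 in atbzip16, against 1250.7, 566.5 and 554.6 in Ler, and it fell by 0.98 ± 0.12 in the dark (adjusted p = 0.000859) and by 1.04 in red light (adjusted p = 0.00148). Here too the groups overlap, since atbzip16 replicate 1 was above Ler replicates 2 and 3. The dark call of ChiC was lost without the replicate block (limma adjusted p = 0.812).

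Of the genes for building the chloroplast, 1 of 9 chlorophyll genes, 0 of 7 photosystem genes and 1 of 67 plastid-encoded genes were called, against 1.65% of named genes. The geranylgeranyl reductase gene AT1G74470, whose product supplies the phytol chain of chlorophyll, was the called member among 9 tested chlorophyll genes of 27 listed. It had 6402.7, 8693.1 and 7959.0 in atbzip16, against 9599.0, 11242.6 and 11366.6 in Ler, and fell by 0.49 ± 0.09 (adjusted p = 0.0138). The call was lost without atbzip16 replicate 2 or 3 or Ler replicate 3 (adjusted p up to 0.111). PORB, the light-dependent protochlorophyllide reductase and also singled out, had -0.38 (-0.58 to -0.17, adjusted p = 0.0638), and the list median was -0.12. None of 7 tested light-harvesting and photosystem genes passed. None had an unadjusted p under 0.05 in limma either, where 2156 of all 15922 probe sets did. Intervals of the 7 ran from -0.51 (LHCB4.3) to 0.47 (LHCB4.1). Their summed signal was 25392 to 32990 in atbzip16 and 24393 to 31000 in Ler. Of 67 plastid-encoded genes 1 was called, psbN of photosystem II, which rose by 0.77 (adjusted p = 0.0199), a call kept among the fits without 1 dark array only in that without Ler replicate 2 (adjusted p up to 0.131). Singled out after their values were seen, the Calvin cycle gene SBPASE fell by 0.54 (adjusted p = 0.0199), AT4G01150, a CURT1 protein of thylakoid curvature, by 0.54 (adjusted p = 0.0237), the thiamine synthesis gene THIC by 0.65 (adjusted p = 0.0122) and the tubulin gene TUB1 by 0.47 (adjusted p = 0.0407). Among fits without 1 dark array these calls were kept only without atbzip16 replicate 2 for SBPASE (otherwise up to 0.127), only without Ler replicate 2 for AT4G01150 (up to 0.155) and TUB1 (up to 0.193), and only without Ler replicate 1 or 3 for THIC (up to 0.0806).

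Genes of growth and hormone pathways tied to etiolation had no called member apart from MYC3, where 1.65% of all named genes were called. None of 10 tested expansin and xyloglucan endotransglucosylase genes, which loosen the cell wall, passed in limma, against 2 at an unadjusted p under 0.05, EXPA9 (-0.42, adjusted p = 0.317) and EXPA8 (-0.28, adjusted p = 0.366). None of 6 gibberellin genes passed, against 1 at an unadjusted p under 0.05, the receptor GID1A (0.37, adjusted p = 0.227), nor any of 4 auxin genes, with none unadjusted. The single tested members for brassinosteroid, BIM1 (0.33, adjusted p = 0.215), ethylene, EIN3 (0.18, adjusted p = 0.39), light signalling, FHL (0.61, adjusted p = 0.171), and the clock, GI (-0.24, adjusted p = 0.356), did not pass. HYH, a bZIP factor related to HY5 and the only tested gene of its list, had 92.8, 117.1 and 90.4 in atbzip16, against 5.0, 100.8 and 70.2 in Ler. Its fold change was 1.60 (-0.01 to 3.20, adjusted p = 0.372), with differences of 4.21, 0.22 and 0.36 within pairs 1, 2 and 3. Most members of these hormone and light lists have no probe set named here, so the lists speak only for the genes tested. A call was also absent in the tested members for abscisic acid and cold (3 genes), heat shock (2), jacalin symbols (3), tau glutathione transferases (9), cytochromes P450 (12), WRKY factors (4) and autophagy (8), of which 0, 2, 1, 2, 0, 1 and 1 had an unadjusted p under 0.05. Over all 15922 probe sets, 2156 had an unadjusted p under 0.05 in limma with the block.

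In red light 87 probe sets (0.546%) differed between atbzip16 and Ler, 34 higher (0.214%) and 53 lower (0.333%). Of these, 36 were also called in the dark, which is 12.4% of the dark calls and 41.4% of the red-light calls. Over all probe sets 0.546% were called in red light and 1.82% in the dark. Both tests use the same spread for each probe set, so a small spread favours both calls. The 87 became 53 without dark atbzip16 replicate 2 and 56 without dark atbzip16 replicate 3, and red-light arrays were not left out singly. The 36 divide into 15 higher in both conditions, 11 lower in both, and 10 that were higher in the dark and lower in red light. Of the 200 probe sets called higher in the dark, 126 (63%) had a red-light difference above 0, where 52.7% of all tested did, and their median red-light fold change was 0.14. Of the 90 called lower in the dark, 73 (81.1%) had a red-light difference below 0, where 52.7% of all tested were above 0. The median red-light fold change of the 90 was -0.19. The fold change of AT3G53980 was -1.50 in red light (adjusted p = 0.0458), that of 254452_at was -4.30 (adjusted p = 0.0208), that of 248863_at was -0.95 (adjusted p = 0.00148) and that of 256166_at was 4.57 (adjusted p = 0.00249).

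The test of the difference between the 2 conditions (interaction, the red-light fold change minus the dark one) called 54 probe sets (0.339%), 50 of them negative (0.314%) and 4 positive (0.0251%). Among them were 42 of the 290 dark calls, 39 of which were higher in the dark with a negative interaction. The interaction subtracts the dark fold change, so choosing probe sets with a high dark value favours a negative interaction. This overlap and its direction are thus partly fixed by the choice, and give no separate support. Without the replicate block no interaction was called in limma, against 567 at an unadjusted p under 0.05. The 54 became 16 without dark atbzip16 replicate 3, 25 without dark atbzip16 replicate 2 or dark Ler replicate 2, and 23 without dark Ler replicate 3. Some genes with a called negative interaction had a red-light fold change near 0, as GRXC1 (-0.04) and AT2G15010 (-0.05). ATOEP16-2 is instead 1 of the 10 probe sets called higher in the dark and lower in red light. In the dark it had 2434.5, 1887.2 and 1826.0 in atbzip16, against 749.7, 665.6 and 535.5 in Ler. Its red-light signals were 10.5, 28.8 and 29.1 in atbzip16, against 57.2, 80.2 and 63.7 in Ler. It was thus higher in the dark and lower in red light, where the fold change was -1.68 (adjusted p = 0.0293), and the interaction was -3.34 ± 0.44 (adjusted p = 0.00402). AT3G57020 had red-light signals of 284.8, 144.1 and 183.9 in atbzip16, against 402.6, 390.2 and 260.5 in Ler, with an interaction of -2.42 (adjusted p = 0.000501). Summed seed transcripts were lower in red light than in the dark in both genotypes: the storage and oil-body genes summed to 763.4 to 1167 in atbzip16 and 969.2 to 1232 in Ler, and their median fold change between genotypes was 0.53 there, against 1.33 in the dark. The median LEA fold change was -0.40 in red light, against 1.19 in the dark. In red light 3 of the 19 LEA genes were called lower (AT5G44310, LEA18 and AT3G17520), all called higher in the dark. So was 1 of the 9 storage and oil-body genes (AT2G25890). This compares with 0.333% of all probe sets called lower in red light, and no gene of either list was called higher there. PAP85 had a log2 fold change between red light and dark of -6.87 in atbzip16 and -6.06 in Ler, and AT2G15010 one of -5.69 in atbzip16 and -3.88 in Ler. These light responses use the same dark arrays as the genotype comparison, and no separate reading is drawn from them.

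**Figure D5:**
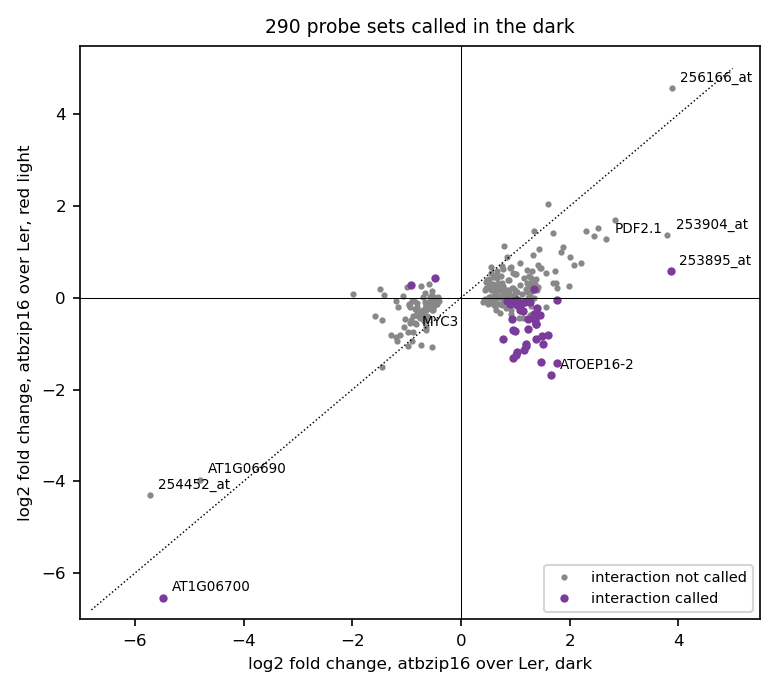
Log2 fold change between atbzip16 and Ler in red light (vertical axis) against that in the dark (horizontal axis) for the 290 probe sets called in the dark, with those whose interaction was called in purple and the line of equal change dotted. AT1G06700, AT1G06690 and 254452_at lie low in both conditions, 256166_at lies high in both, and 39 probe sets higher in the dark with a called negative interaction lie to the right and below the line.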

How the data were processed

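Biotin-labelled RNA, labelled as total RNA, was hybridised to Affymetrix-type arrays. The protocol text also describes polysome RNA, against the molecule label, which is used here. The authors deposited 1 linear intensity per probe set and array, computed with MAS5 per the submitters' processing notes. Median signal was 163.7 to 186.1 on the dark arrays and 148.3 to 186.1 on all 12, and the number of arrays limits the precision. Values were analysed as log2 signal with no pseudocount, leaving out 64 control probe sets and the 30% of the other 22746 with the lowest geometric mean signal (under 41.6). A mean per group and replicate number as a fixed block were fitted to all 12 arrays with limma 3.58.1 in R 4.3.3 (eBayes with a variance trend), and p was adjusted by Benjamini-Hochberg over 15922 probe sets. The block was kept because residuals of same-numbered arrays correlated in all 18 pairs across groups (0.164 to 0.505), most in replicate 1 (0.317 to 0.505). Same-numbered arrays of replicates 2 and 3 correlated at 0.164 to 0.292. Across groups, replicate 2 with replicate 3 correlated at 0.105 to 0.248, nearly as much. These correlations thus set apart mainly replicate 1, and give little ground for telling replicates 2 and 3 apart. The labels call the replicates biological and say no more. The p-values are set against the spread left between these samples once group and replicate number are fitted over all 12 arrays. The code of the fit was also run on simulated data with an equal spread for all probe sets, which checks the code and not these calls.

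Genes were named through the platform annotation, and a gene table (assembly TAIR10.1) gave symbols and gene order. The annotation lists 13513 probe sets with 1 gene and 503 with several, and 8730 were not listed. Of the 13513, 13436 were found in the table, and a gene is represented by its brightest probe set. Neighbours are counted over protein-coding genes and tested genes.

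The members, gene lists and rules were chosen with earlier results of these data known. Named genes are the 12 largest rises and falls among called genes, probe sets called without the block, no more than 4 called genes per list (where none was called, the 2 of smallest p), and tested genes up to 3 genes from the 5 largest rises and falls. Genes named beyond that rule were chosen after their values were seen. Lists without a tested member were abscisic acid metabolism, flavonoid, mitochondrion-encoded, lipid transfer protein and MYB genes. A planned search for promoter motifs was not run, as no promoter sequence was used here.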

Additional observations from a re-analysis of the deposited data

Results flagged for a closer look

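For 16 named genes and probe sets the genotype difference in the dark and that in red light differed by the interaction test in limma (red-light fold change minus dark fold change, log2, adjusted p under 0.05). The difference was negative for 15. It was -3.59 for M10, -3.34 for ATOEP16-2 and -3.28 for the unnamed probe set 253895_at. The red-light signals of M10 (14.9, 13.2 and 7.8 in atbzip16, against 66.0, 111.3 and 12.1 in Ler) and ATOEP16-2 (10.5, 28.8 and 29.1, against 57.2, 80.2 and 63.7 in Ler) lay near the bottom of the scale, which limits these sizes. With a pseudocount of 16 they were -2.88 for M10, -2.76 for ATOEP16-2 and -3.17 for 253895_at, and all 3 were still called (adjusted p = 0.00348, 0.000411 and 0.00596). Genes of seed proteins had -2.51 (AT5G44310), -2.25 (AT2G25890), -2.21 (AT3G17520), -1.71 (LEA18) and -1.41 (AtLEA4-1). The papain-type protease gene AT3G54940 had -2.20, the storage protein processing enzyme BETA-VPE -1.76, the AWPM-19-like gene AT1G04560 -1.84, the thionin-like gene AT2G15010 -1.81, the strictosidine synthase-like gene AT3G57020 -2.42 and the glutaredoxin gene GRXC1 -1.07. All of these except M10 were called higher in atbzip16 in the dark. Both tests use the dark arrays, and a high dark fold change pulls the interaction down, so this match is partly fixed in advance. AT1G06700, lower in atbzip16 in both conditions, had -1.06, with a dark-to-light change of -0.61 in atbzip16 and 0.45 in Ler. The tubulin gene TUB1 had the positive interaction, 0.90, with fold changes of 0.43 in red light (adjusted p = 0.12) and -0.47 in the dark. None of these interactions was called without the replicate block, where limma called 0 over all probe sets, against 567 at an unadjusted p under 0.05.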

How the results depend on the processing

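Of 290 probe sets called in the dark (200 higher, 90 lower), the replicate block decides most: with no replicate block 10 were called (5 higher, 5 lower), and with a random block 125 (91 and 34). Without a variance trend 62 were called (49 and 13), and from the 6 dark arrays alone 793 (494 and 299). Without replicate 1 in all 4 groups 706 were called (429 and 277), without replicate 2 in all groups 28 (24 and 4), and without replicate 3 36 (30 and 6). Leaving out 1 dark array gave 107 to 288 (80 to 215 higher, 24 to 73 lower). Filters, pseudocount, quantile normalization and median centring gave 252 to 373. In red light, the 87 calls (34 higher, 53 lower) became 6 (2 and 4) without the block, 23 (9 and 14) with a random block, 14 (5 and 9) without a trend, and 522 (218 and 304), 1 (0 and 1) and 7 (2 and 5) without replicate 1, 2 or 3 in all groups; leaving out 1 dark array gave 53 to 105 (18 to 40 and 34 to 67). The 54 interactions (4 positive, 50 negative) became 0 without the block or the trend (567 and 1292 at an unadjusted p under 0.05), 8 (0 and 8) with a random block, 92 (8 and 84) with a pseudocount of 16, 285 (80 and 205), 0 (810 unadjusted) and 11 (0 and 11) without replicate 1, 2 or 3 in all groups, and 16 to 76 (0 to 4 and 16 to 72) without 1 dark array. The cause was not tested. No called named gene changed sign in any setting. With arrays left out, 13 named genes that were not called did, none of them called there (lowest adjusted p = 0.861). Without 1 dark array their log2 fold changes ran from -0.06 to 0.65 for AT3G21400, -0.19 to 1.17 for AT1G35617, -0.09 to 0.48 for AT1G06720, -0.40 to 0.72 for AT5G35960, -0.05 to 0.19 for AT5G35930, -0.08 to 0.16 for AT3G21390, -0.09 to 0.12 for AT3G53950, -0.56 to 0.02 for GH3.3 and -0.71 to 0.10 for LTI30. Without replicate 1 in all groups they were -0.12 for AT1G35617, -0.23 for AT5G35960, -0.04 for AT3G21390 and 0.02 for LHCB4.2, and PYK10 was just above 0. Without replicate 2 they were -0.04 for AT3G21390, -0.02 for AT3G53950 and 0.06 for COR15B, and AT3G53970 was just below 0. Without replicate 3 they were -0.02 for AT1G35617, -0.04 for AT1G06720 and -0.05 for AT3G53950. Of the 56 called genes and probe sets given by name or number in this text, 22 were called in all 6 fits without 1 dark array. Probe sets without a gene are part of the 56, and all of them were among the 22. The dark-only fit cannot give red-light or interaction values. Signals near the bottom of the scale, as in AT1G06690 and 254452_at, and in M10 and ATOEP16-2 in red light, limit their fold changes.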
